A study of Mus musculus with 45 samples.

Results

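The Obox genes are a mouse family of homeobox genes named for their expression in the oocyte. Of these, Obox1, Obox2, Obox3, Obox5, Obox6, Obox7 and Obox8 were followed here; they were chosen by symbol, 7 of the 55385 genes in each of 18 RNA-seq libraries. Some of the patterns described here were known when the family was chosen. The libraries came from mouse embryos and embryonic stem (ES) cells at 4 stages, all carrying a dTAG on both Gabpa alleles (genotype Gabpa-dTAG/dTAG), so that every control carries the knock-in too and wild-type samples were not analysed here. GABPA is an ETS-family transcription factor. The dTAG fuses it to a mutant FKBP domain that the small molecule dTAG13 links to the cell's degradation machinery, and the controls of each stage received the solvent DMSO.

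Late two-cell (L2C) embryos, 3 libraries a treatment, were given dTAG13 at 1 µM from 6 to 30 hours post fertilization (hpf). Morulae, 2 libraries a treatment, were treated at 1 µM from 42 hpf, at the four-cell stage. The E4.5 inner cell mass (ICM), 2 libraries a treatment, was treated at 1 µM from 84 to 100 hpf and then freed of trophectoderm by immunosurgery, which leaves a mixture of epiblast and primitive endoderm. The 2iES cells, 2 libraries a treatment, were E14 cells grown in 2i/LIF medium with serum, derived from single picked clones and treated at 0.5 µM for 24 h. Embryos were made by in vitro fertilization with dams of 7 to 8 weeks and sires of 8 to 12 weeks, from founders backcrossed to C57BL/6J. The study describes the libraries of a group as biological replicates. Levels are given as TPM, transcript abundances relative to all transcripts of a library, which are scaled by gene length and can be set side by side between genes.

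Homeobox proteins bind DNA through the homeodomain, and those of the Obox group resemble the Otx and Crx proteins, which bind sites of the TAATCC kind. Obox proteins are known from mouse two-cell embryos as redundant activators of the zygotic genome. Transcripts of Obox1, Obox2, Obox5 and Obox7 are known as maternal, stored in the egg, and Obox3 as expressed once the embryo's own genome is switched on. Obox6 has been used to promote the reprogramming of fibroblasts to pluripotency.

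All 7 genes lie within 1508.2 kb of chromosome 7 (GRCm38, chr7:14331436-15839678), among 46 further genes of that chromosome whose names begin with Obox, nearly all pseudogenes. How far reads can be assigned to 1 gene of the family differed greatly between its members, and the following 75-base stretches, as long as a read, show why. They are the ungapped part of the coding alignment in which the 7 genes are most alike, written 5′ to 3′ on the coding strand, and the capitals mark bases that differ from Obox1. Coding exons follow GENCODE vM21 and bases the RefSeq GRCm38 sequence.
Obox1: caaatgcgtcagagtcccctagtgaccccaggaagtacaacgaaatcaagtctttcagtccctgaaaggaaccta
Obox2: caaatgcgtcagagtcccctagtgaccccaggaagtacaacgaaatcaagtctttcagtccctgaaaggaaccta
Obox3: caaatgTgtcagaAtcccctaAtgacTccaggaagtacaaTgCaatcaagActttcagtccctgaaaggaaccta
Obox5: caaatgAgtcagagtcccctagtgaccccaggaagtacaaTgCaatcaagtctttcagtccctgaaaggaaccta
Obox6: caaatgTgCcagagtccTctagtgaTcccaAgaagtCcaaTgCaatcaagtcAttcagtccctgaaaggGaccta
Obox7: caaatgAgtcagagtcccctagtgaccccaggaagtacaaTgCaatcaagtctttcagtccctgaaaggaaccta
Obox8: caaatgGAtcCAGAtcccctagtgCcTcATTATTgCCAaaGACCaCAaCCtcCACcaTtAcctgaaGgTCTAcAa

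In this stretch Obox1 (chr7:15555267-15555341, plus strand) and Obox2 (chr7:15396950-15397024, plus) were identical, as were Obox5 (chr7:15757642-15757716, plus) and Obox7 (chr7:14664142-14664216, plus), which differed from Obox1 at 3 bases. Obox3 (chr7:15627159-15627233, minus) differed from Obox1 at 7 bases, Obox6 (chr7:15834743-15834817, minus) at 10 and Obox8 (chr7:14332869-14332943, minus) at 36. Over whole coding sequences Obox1, Obox2, Obox3, Obox5 and Obox7 were 92.9 to 98.5% identical to one another at aligned bases. Obox6 was 73.7 to 79.8% identical to those 5 genes, and Obox8 48.2 to 51.6% identical to any of the others.

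The same order held for exact words of 31 bases in the annotated transcripts, taken on either strand because the libraries keep no strand. Obox2 shared 79.9% of its words with another of the 7 genes and Obox1 70.0%, mostly with each other. Obox7 shared 43.5% and Obox5 36.2%, whereas Obox3 shared 8.65% with the other members and 24.8% with Obox-named pseudogenes. Obox6 shared 1.07% with members and 14.6% with other Obox-named genes, chiefly the pseudogene Obox6-ps1, and Obox8 shared none with any gene. The values of Obox1, Obox2, Obox5 and Obox7 therefore depend on how the quantification divided shared reads, and those of Obox8 do not. RSEM's own posterior SD of the count, at the L2C stage, was 0.813 to 1.16% of the count for Obox2, 0.149 to 0.205% for Obox3 and 0 for Obox8. It was 0.684 to 0.977% for Obox1 and 0.513 to 0.797% for Obox7. For Obox5 it was 0.0557 to 0.0744%, below Obox3, although Obox5 shares more words with members.

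**Figure D1:**
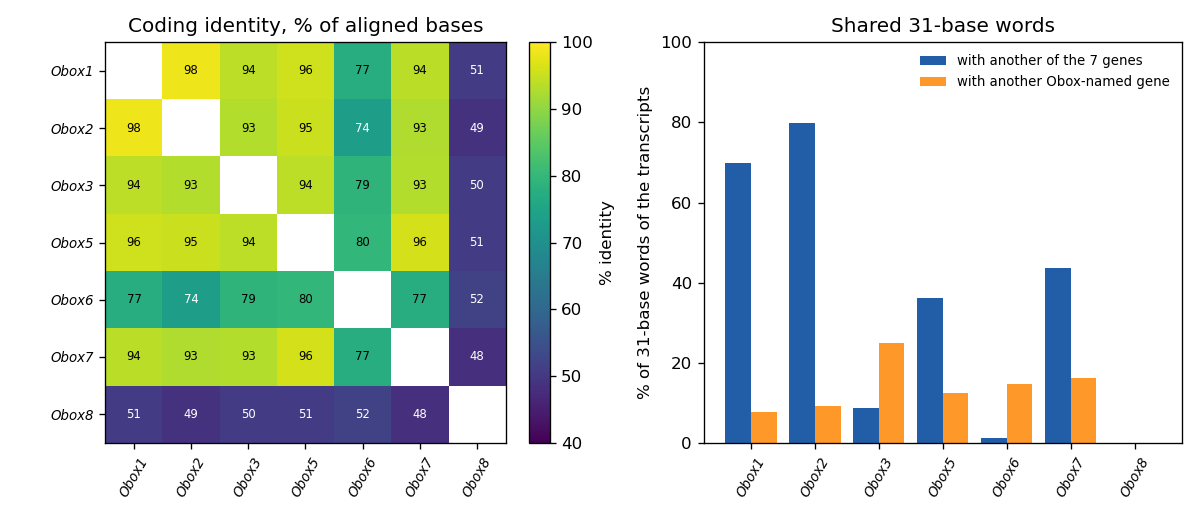
Left, identity of the coding sequences of each pair of the 7 genes, in % of aligned bases (colour and number). Right, the share of each gene's 31-base transcript words that also occurs in another of the 7 genes (blue) or in another Obox-named gene (orange), from 79.9% with members for Obox2 to 0 for Obox8.

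RefSeq promoters (GRCm38.p6, 250 bases before to 50 after the start) were at hand for 5 of the 7 genes, with none for Obox6 and Obox8. The motif CCGGAAGT, which GABPA and other ETS factors are known to bind, and its shorter form CCGGAAG were searched on both strands; every match of the longer is also one of the shorter. None of the 5 held either, while 3.89% of all 32851 promoters of the same length held CCGGAAGT and 8.86% held CCGGAAG. This says only that these letters were not in this window. The bases upstream of the RefSeq start are shown for Obox3 and Obox5, the members other than Obox6 and Obox8 with the highest levels. In GENCODE vM21 these genes start inside the stretches shown, Obox3 at chr7:15639902 and Obox5 at chr7:15750131. Part of each stretch therefore lies within the gene as annotated there. Capitals mark TATAAA (in 13.6% of all promoters) and GGATTA, the reverse complement of TAATCC (7.06% on either strand), which occurred in Obox3 alone of the 5.
Obox3 (chr7:15639778-15640027, minus strand): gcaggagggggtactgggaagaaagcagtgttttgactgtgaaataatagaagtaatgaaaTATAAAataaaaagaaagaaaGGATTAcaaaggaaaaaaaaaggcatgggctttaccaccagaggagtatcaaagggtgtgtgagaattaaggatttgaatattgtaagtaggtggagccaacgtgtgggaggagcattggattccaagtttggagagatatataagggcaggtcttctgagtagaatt
Obox5 (chr7:15750120-15750369, plus strand): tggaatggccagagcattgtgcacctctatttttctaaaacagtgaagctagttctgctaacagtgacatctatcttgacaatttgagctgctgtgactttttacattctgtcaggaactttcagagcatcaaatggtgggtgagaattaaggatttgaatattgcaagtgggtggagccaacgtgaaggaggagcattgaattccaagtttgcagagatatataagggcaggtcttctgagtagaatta
Over aligned bases these upstream stretches were 71.3% identical between Obox3 and Obox5 and 97.3% identical between Obox5 and Obox7.

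All 7 genes were at their highest at the L2C stage and far lower in control morulae, and Obox6 and Obox8 were the most abundant. Obox6 measured 1041, 1034 and 1120 TPM in the 3 L2C DMSO libraries, and by its mean it ranked 120 among the 13672 genes at 1 TPM or more. Obox8, the member least like the others in sequence, measured 877, 1001 and 949 TPM there and ranked 137. The ranges of the 2 genes did not overlap, the lowest Obox6 library lying above the highest Obox8 library. Obox3 followed with a mean of 327 ± 18.8 TPM (SD, n = 3), then Obox5 with 176 ± 21.6 TPM and Obox1 with 80.0 ± 11.6 TPM. Obox2 had 63.7 ± 7.10 TPM, overlapping Obox1 (55.7 to 69.1 against 68.0 to 91.3 TPM), and Obox7 was lowest at 17.5 ± 1.83 TPM. The 7 genes summed to 2671 ± 136 TPM in these libraries and took 0.314 to 0.345% of all counts.

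Pseudogenes of the family were also measured at this stage. Of 48 other Obox-named genes, 12 exceeded 1 TPM in some library and 10 were at 0 in all. Obox3-ps5 averaged 689 TPM in L2C DMSO libraries, above Obox3 itself, Obox3-ps2 454 TPM and Obox3-ps6 303 TPM. Together the 48 took 32.4 to 33.2% of all Obox counts in L2C DMSO libraries and 33.1 to 36.7% with dTAG13. Since Obox3 shares words with these genes, how reads were divided between it and them bears on its level, and this was not tested.

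**Figure D2:**
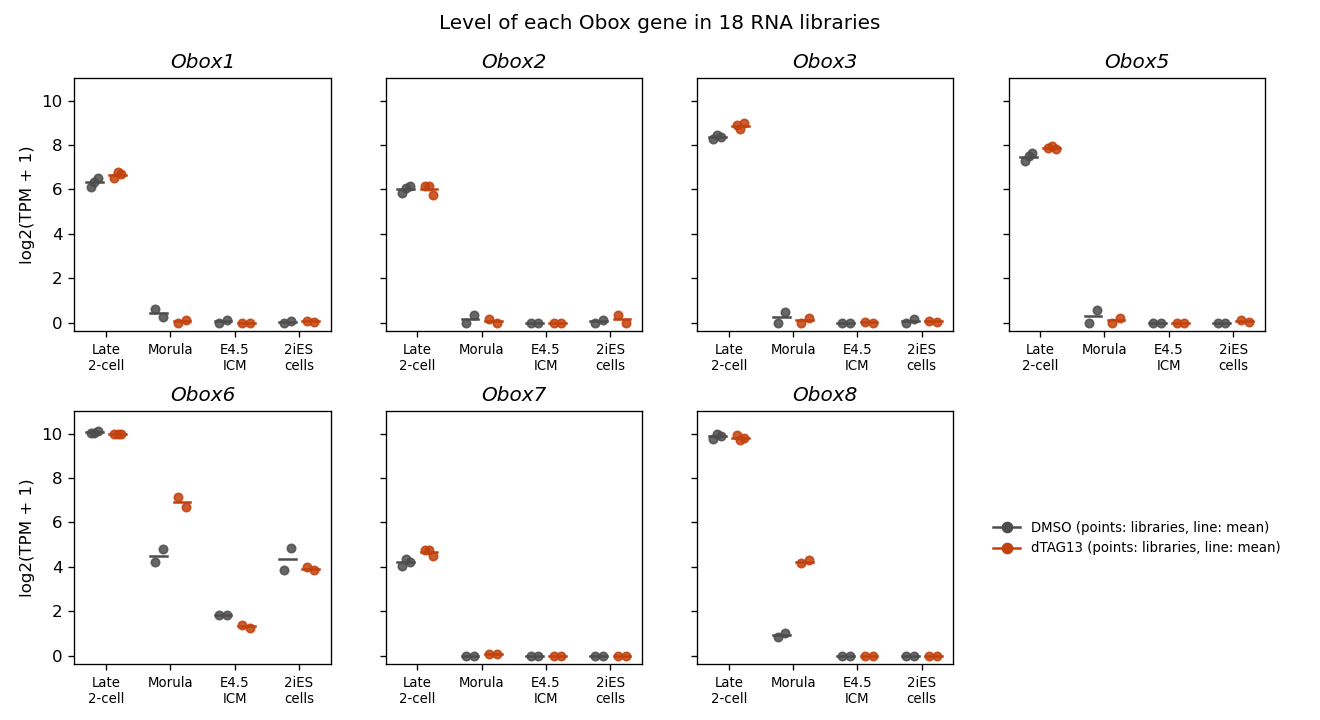
Level of each of the 7 genes as log2(TPM + 1) in the 18 libraries, by stage, with DMSO in grey and dTAG13 in orange; points are libraries and lines are group means. Every gene is highest at the late two-cell stage, and of the later groups only Obox6 in every stage and Obox8 in dTAG13 morulae have means above 1 TPM.

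Control libraries of neighbouring stages were compared in 1 fit of the 9 DMSO libraries with edgeR's quasi-likelihood test and Benjamini-Hochberg adjustment over all genes. A call needed an adjusted p under 0.05, levels that differed by 2-fold or more, and a group mean of 1 or more in FPKM, the deposited values of fragments scaled by gene length and depth. Obox6 and Obox8, which also had 10 or more counts in both control morula libraries, were called lower in morulae than in L2C embryos, beside 27.7% of all genes tested called lower, 22.6% called higher and 50.3% called in either direction. The other 5 genes were called lower as well, but they passed the filter on low counts only through the L2C libraries, where they are high, so their calls were fixed by how they entered the test and are not used here. In bulk samples, fewer cells of a type and less RNA per cell cannot be told apart.

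Obox6 fell to 17.8 and 26.5 TPM in the 2 morula DMSO libraries, 2.08% of its L2C DMSO mean, or 48.2-fold lower by mean TPM. The fold fitted to TMM-scaled counts was 38.5 (log2 fold change -5.27, SE 0.32, edgeR adjusted p = 2.9e-08). Obox8 fell further, to 0.78 and 1.00 TPM or 10 and 14 counts, 0.0945% of its L2C mean or 1058-fold lower by mean TPM. Its fitted fold was 846 (log2 -9.71, SE 0.24, edgeR adjusted p = 8.4e-10). All morula libraries of both genes lay below all L2C libraries.

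The other 5 genes were near the limit of detection in control morulae. Obox1 had 7 and 3 counts, Obox2, Obox3 and Obox5 had 0 counts in the first library and 4, 8 and 8 in the second, and Obox7 had 0 in both. Measured against a floor of 3 counts in each morula library, Obox7 was at least 71.8-fold lower than at the L2C stage.

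Between control morulae and E4.5 ICM Obox6 was called lower, beside 13.2% of genes called lower, 16.0% called higher and 29.2% called in all. Obox8 was called lower too, but it passed the filter on low counts only through L2C and morula libraries, where it is higher. Its call was fixed by how it entered the test and is not used here. No other member was called. Obox6 measured 2.60 and 2.55 TPM in the ICM, 8.58-fold below morulae by mean TPM and 11.2-fold in the fit (log2 -3.48, SE 0.33, edgeR adjusted p = 6.2e-06). Obox8 had no count in any of the 4 ICM libraries and was at least 8.36-fold lower in the 2 control libraries at a floor of 3 counts in each. From the ICM to 2iES cells Obox6 alone was called, higher in ES cells at 13.4 and 27.6 TPM. The difference was 7.96-fold by mean TPM and 12.3-fold in the fit to TMM-scaled counts (log2 3.62, SE 0.33, edgeR adjusted p = 6.7e-06), beside 12.0% of genes called higher, 12.7% called lower and 24.7% called in all. Without any 1 library the fitted log2 value was 2.98 to 4.08. The 2iES cells differ from the ICM in culture and origin as well as stage, and these cannot be told apart. The markers listed for these cells were present: all 11 epiblast genes averaged over 1 TPM in both control groups, and all 10 primitive endoderm genes did in the ICM.

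Obox6 was the member detected in every group, and its 8 group means fell in the order L2C DMSO, L2C dTAG13, morula dTAG13, morula DMSO, 2iES DMSO, 2iES dTAG13, ICM DMSO and ICM dTAG13. Neighbours did not overlap except morula DMSO with 2iES DMSO and 2iES DMSO with 2iES dTAG13. For Obox8 the order after the L2C stage was morula dTAG13, morula DMSO and then 4 groups at 0. The other 5 genes held 0 to 3 counts in every control ICM and 2iES library, and at most 10.6 counts in any library past the L2C stage.

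dTAG13 acts on the tagged protein, so the Gabpa transcript does not check its loss. Gabpa measured 87.3 to 116 TPM in L2C DMSO libraries and 141 to 162 TPM with dTAG13; at the 4 stages its log2 fold change was 0.52 to 0.95, and it was not called at any.

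At the L2C stage none of the 7 genes was called with dTAG13, all 7 having passed the filter on low counts, while 4.11% of 17421 genes were called (0.476% higher and 3.63% lower). The level of Obox6 was 1020, 1012 and 997 TPM with dTAG13, each below the 3 DMSO libraries, at a log2 fold change of -0.15 (SE 0.07, edgeR adjusted p = 0.24). Obox8 measured 969, 831 and 892 TPM with dTAG13 and overlapped its controls (log2 -0.14, SE 0.08, edgeR adjusted p = 0.387). The sum over the 7 genes was 2798 ± 81.3 TPM with dTAG13 against 2671 ± 136 TPM, and the TMM-scaled sum of their counts differed by 0.02 on the log2 scale.

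Obox3, which is known as transcribed by the embryo itself, measured 307, 344 and 331 TPM in DMSO libraries and 476, 418 and 509 TPM with dTAG13. The groups did not overlap. Its log2 fold change of 0.40 (SE 0.09) had an edgeR adjusted p of 0.0144, as 8.56% of all genes had an adjusted p under 0.05 at any fold, but it stayed under the fold of 2. In single fits without 1 library this p ranged from 0.00918 to 0.0631, over 0.05 without DMSO replicate 1 or 3 or dTAG13 replicate 1 or 3. In 1 fit of all 18 libraries it was 0.24.

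Of the maternal members, Obox5 measured 153, 179 and 196 TPM in DMSO libraries and 230, 250 and 221 TPM with dTAG13 (log2 0.33, SE 0.11, edgeR adjusted p = 0.102). Obox7 measured 15.6, 19.2 and 17.6 TPM against 26.4, 26.4 and 21.6 TPM (log2 0.49, SE 0.18, edgeR adjusted p = 0.141). Neither overlapped between groups, and neither passed the test. Obox1 measured 68.0, 80.6 and 91.3 TPM against 89.2, 110 and 103 TPM, with 1 DMSO library above 1 dTAG13 library (log2 0.27, SE 0.14, edgeR adjusted p = 0.321). Obox2, which shares most of its sequence with Obox1, measured 55.7, 66.3 and 69.1 TPM against 70.6, 69.4 and 53.1 TPM, and its groups overlapped (log2 -0.09, SE 0.15, edgeR adjusted p = 0.805). Under upper-quartile scaling the Obox2 value was 0.03, in the other direction.

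In all, 4 of 7 members did not overlap between L2C groups in TPM (Obox3, Obox5 and Obox7 higher and Obox6 lower with dTAG13), against 27.4% of all genes tested. Obox5 and Obox7 share part of their sequence, and so of their reads, and are not separate observations. The shares within the family moved with them. Obox3 made up 11.9 to 12.6% of the summed TPM in DMSO libraries and 15.4 to 18.2% with dTAG13, Obox6 38.0 to 41.4% and 35.4 to 37.2%, and Obox8 34.2 to 36.7% and 30.6 to 33.6%. The other Obox-named genes tested, 11 of 48, had 0 calls and a median log2 fold change of 0.22 beside 0.02 over all genes.

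**Figure D3:**
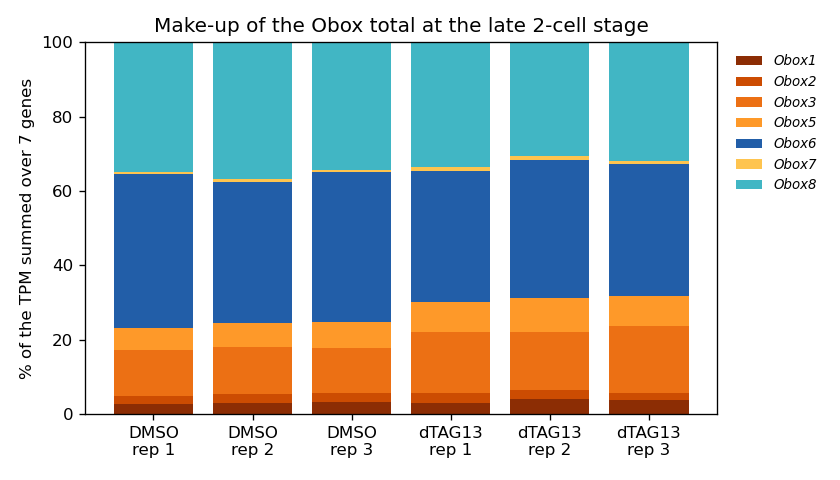
Share of each of the 7 genes in their summed TPM in the 6 late two-cell libraries, in %, stacked to 100. The Obox3 share is 11.9 to 12.6% in the 3 DMSO libraries and 15.4 to 18.2% in the 3 dTAG13 libraries, and Obox6 with Obox8 make up most of every bar.

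In morulae Obox6 and Obox8, the only members that passed the filter on low counts, were both called higher with dTAG13. Of 13667 genes tested 0.351% were called, 0.154% higher and 0.198% lower, and 0.366% had an adjusted p under 0.05 at any fold. The higher levels in dTAG13 morulae were among the results known when the family was chosen, so the values are given as a description of these libraries.

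Obox6 measured 17.8 and 26.5 TPM in DMSO morulae and 142 and 101 TPM with dTAG13, or 266 and 436 counts against 2554 and 1714. Both dTAG13 libraries lay above both controls, and 43.6% of all genes tested did not overlap between these groups of 2. The log2 fold change was 2.46 (SE 0.24) and 2.22 to 2.76 without any 1 library. Its mean with dTAG13 was 11.4% of its L2C DMSO mean, against 2.08% in control morulae.

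Obox8 measured 0.78 and 1.00 TPM in DMSO morulae and 16.9 and 18.8 TPM with dTAG13, or 10 and 14 counts against 260 and 271. The groups did not overlap, and the log2 fold change was 4.32 (SE 0.35) and 4.18 to 4.49 without any 1 library. On the log2(TPM + 1) scale, which understates changes of low genes, it was 3.32. Its mean with dTAG13 was 1.90% of the L2C DMSO mean. Every morula library of both genes lay below every L2C library.

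In dTAG13 morulae the 5 other members had 0 to 4 counts and in DMSO morulae 0 to 8.13, too few to be tested. The 48 other Obox-named genes took 0.702 and 6.31% of all Obox counts in DMSO morulae and 0.319 and 0.648% with dTAG13, and none passed the filter.

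**Figure D4:**
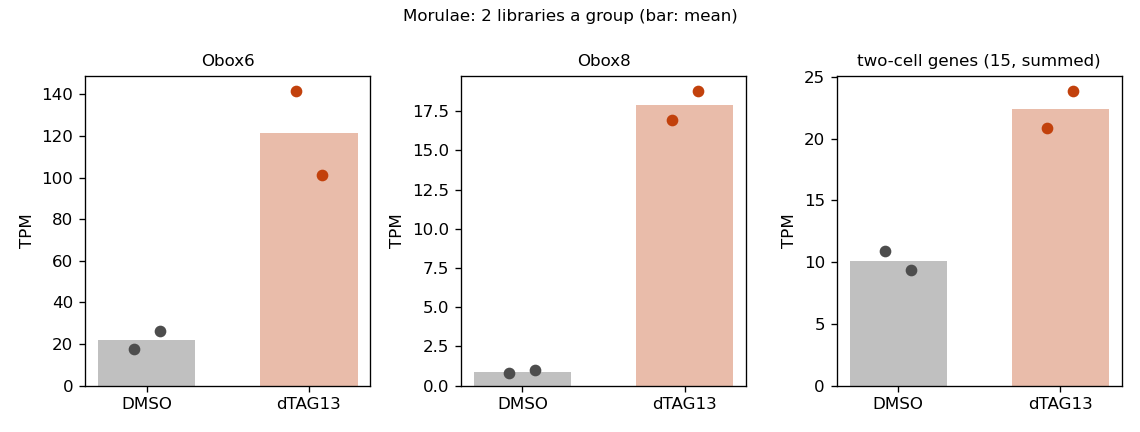
TPM of Obox6, of Obox8 and of the sum over 15 two-cell genes in the 2 DMSO and 2 dTAG13 morula libraries (points) with group means (bars), axes from 0. Both genes, and the summed two-cell genes (9.36 and 10.9 against 20.9 and 23.9 TPM), are higher in both dTAG13 libraries.

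The 15 listed two-cell genes, among them Zscan4c and Zscan4d, summed to 9.36 and 10.9 TPM in DMSO morulae and 20.9 and 23.9 TPM with dTAG13, against 452 to 850 TPM in L2C DMSO libraries. The sum does not stand for every gene of the list. Mean TPM in DMSO and dTAG13 morulae was 2.665 and 9.525 for Arg2 and 0 and 2.65 for Tdpoz4. It was 0.245 and 0.22 for Zscan4c and 0.02 and 0.205 for Zscan4d. Of 8 that could be tested, 2 were called higher (Arg2 and Tdpoz4, the latter at 0 in both control libraries) and 0 lower, at a median log2 fold change of 1.24 beside -0.02 over all genes. Tdpoz4 passed the filter on low counts only through the dTAG13 libraries, where it is high, so its call is not used here. The median covers only genes that passed this filter and can be shifted upward in the same way. Oocyte and maternal transcripts summed to 19.7 to 21.8 TPM in DMSO and 25.3 TPM in both dTAG13 libraries, with 0 of 8 called. Trophectoderm genes summed to 371 to 380 TPM and 428 to 431 TPM, with 0 of 10 called. Cumulus and granulosa cell genes summed to 1.38 to 2.98 TPM and 0.47 to 0.50 TPM, with 0 of 1 called, and 0 of 11 epiblast and 0 of 6 primitive endoderm genes were called. The part of these in the Obox values was not tested.

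Of 33 other early homeobox genes found, such as Crxos, Otx2, Nanog, Pou5f1 and Cdx2, 25 could be tested at the L2C stage and 23 in morulae, and 0 were called at either. Of transcription factors tied to genome activation, such as Nr5a2, Klf17 and Dppa2, 19 and 18 were tested and 0 called. At the L2C stage Dppa4 (log2 -0.81, edgeR adjusted p = 4.4e-05) and Dppa2 (log2 -0.52, edgeR adjusted p = 0.0015) were lower with dTAG13, under the fold of 2. This list summed there to 1643 to 1828 TPM with DMSO and 1291 to 1336 TPM with dTAG13. At the L2C stage the marker lists held 1 call, Sparc, a primitive endoderm gene for a matrix protein, at 2.31 TPM with DMSO and 8.22 TPM with dTAG13 (log2 1.63). There 0 of 14 oocyte, 15 two-cell, 10 trophectoderm, 11 epiblast and 3 cumulus genes tested were called, while the oocyte genes summed to 2370 to 2504 TPM with DMSO and 2995 to 3211 TPM with dTAG13. The part of this in the values of the maternal Obox genes was not tested.

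**Figure D5:**
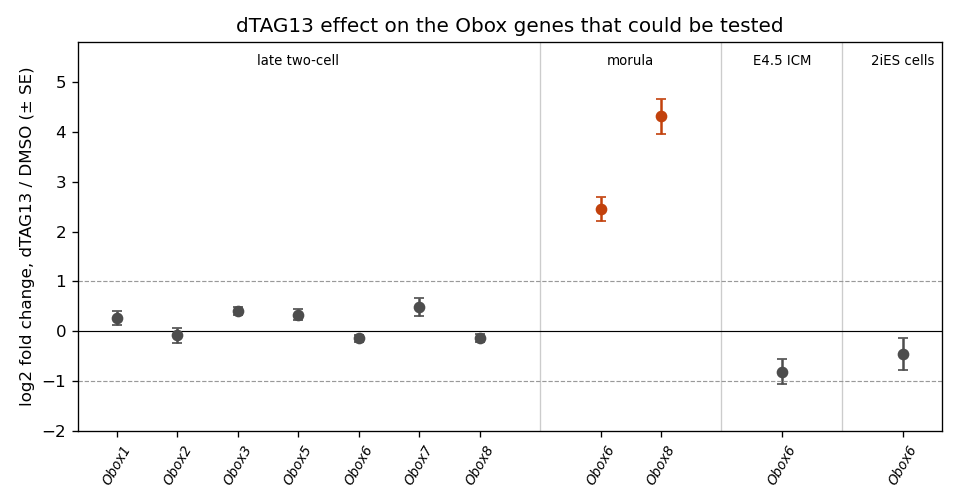
log2 fold change of dTAG13 over DMSO with its SE (edgeR) for each member that passed the filter on low counts at each stage; dashed lines mark a fold of 2 and orange points were called. The 7 late two-cell values lie between -0.15 and 0.49, and Obox6 and Obox8 in morulae at 2.46 and 4.32.

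In the E4.5 ICM Obox6 was the only member with enough counts. It measured 2.60 and 2.55 TPM with DMSO and 1.61 and 1.40 TPM with dTAG13, or 69 and 62 counts against 38 and 34. The groups did not overlap, as for 84.8% of genes tested. The log2 fold change of -0.81 (SE 0.25, edgeR adjusted p = 0.0034) was below the fold of 2, and it was not called, beside 25.3% of genes that were. An adjusted p under 0.05 was common here, at 76.9% of genes, and replicates of this stage differed little more than sampling noise. With DESeq2 the adjusted p of Obox6 was 0.0634. In the same libraries trophectoderm genes summed to 81.9 and 86.3 TPM with DMSO and 794 and 795 TPM with dTAG13, with 8 of 10 called higher, and the part of this in the Obox6 value was not tested. Of 30 early homeobox genes tested, 3 were called higher and 9 lower, with the largest falls in Rhox9 (0.99 TPM with DMSO and listed at 0 with dTAG13), Pbx3 (log2 -3.62), Rhox6 (-3.36) and Rhox5 (-3.12). Satb1 (2.56), Cdx2 (2.25), a trophectoderm factor, and Msx1 (1.26) were higher. Of 17 genome activation factors, Gata3 was called higher (2.82) and Dppa4 lower (-1.86). Calls numbered 2 lower of 7 oocyte genes, 3 higher and 2 lower of 7 two-cell genes, 6 lower of 11 epiblast genes, 1 higher of 10 primitive endoderm genes and 0 of 3 cumulus genes.

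In 2iES cells Obox6 measured 13.4 and 27.6 TPM with DMSO and 14.9 and 13.4 TPM with dTAG13. The groups overlapped, and the log2 fold change of -0.46 (SE 0.32, edgeR adjusted p = 0.261) rested on DMSO replicate 2: without that library it was 0.15, and without DMSO replicate 1 it was -0.93. Calls were made for 28.0% of genes, 54.6% had an adjusted p under 0.05 at any fold, and 77.9% did not overlap. DMSO replicate 2 also had the higher two-cell gene sum of the controls, 51.4 against 9.61 TPM. In the dTAG13 libraries that sum was 107 and 38.3 TPM beside 14.9 and 13.4 TPM of Obox6, and its part in the Obox6 values was not tested. The other 6 genes had too few counts to be tested, and Obox8 had none in any of these 4 libraries. Of 28 other early homeobox genes, 1 was called higher (Zfhx3, log2 1.22) and 7 lower, with Rhox5 (-3.77), Tgif2 (-3.02), Pbx2 (-1.82) and Pou5f1 (-1.75), the pluripotency factor OCT4, changed most. Of 18 genome activation factors, Zscan4d (1.93), Tfap2c (1.47), Sp1 (1.17) and Nfyb (1.03) were higher and Nfyc (-1.09) lower. Calls numbered 2 higher of 11 two-cell genes, 2 lower of 4 oocyte genes, 3 lower of 11 epiblast genes, 1 higher and 1 lower of 8 trophectoderm genes, 1 higher of 6 primitive endoderm genes and 1 higher of 3 cumulus genes.

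Differences between the stages in the dTAG13 effect were tested in 1 fit of all 18 libraries, at an adjusted p under 0.05. From the L2C stage to the morula the effect on Obox6 differed by 2.70 on the log2 scale (SE 0.31) and that on Obox8 by 4.55 (SE 0.24), beside 6.47% of genes called. From the morula to the E4.5 ICM the effect on Obox6 differed by -3.34 (SE 0.43), beside 16.1% of genes. All of these were past the threshold, but they contain the higher morula levels that were known when the family was chosen, so they are a description and no separate support. From the ICM to 2iES cells it differed by 0.39 (SE 0.43, edgeR adjusted p = 0.625), beside 17.4% of genes. Neighbouring contrasts share the libraries of the stage between them. The other 5 members, with at most 10.6 counts in any library past the L2C stage, had adjusted p values of 0.0776 to 0.90 in the first of these contrasts.

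Genes outside the 7 whose levels most resembled each member's were found by Pearson's r of log2(TPM + 1) over the 18 libraries, among 18882 genes. The points fall into L2C libraries and the rest, so r describes mainly that contrast, and the 6 L2C libraries share a stage and a range of depth. Obox6 was most like Supt4a, Cks2 and Larp4 (r of 0.979 to 0.981) and Obox8 like Slc19a3, Znhit3 and Klf17 (0.993 to 0.996), Klf17 being a zinc-finger factor of the early embryo. Obox3 was most like the pseudogenes Obox3-ps6 and Obox3-ps3 and the F-box gene Fbxw16, which was also first for Obox5, followed by Tcl1b5 and Gm6507. Obox1 was most like Gm13023, Gm2042 and Tcl1b1, Obox2 like Gm13089, Obox3-ps4 and Obox3-ps2, and Obox7 like AA543401, A530021J07Rik and Gm49403. Of these 21 places, held by 20 genes, 1 was kept by the same gene with Spearman's rho and 5 with log2(TPM + 0.1).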

How the data were processed

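RNA was reverse transcribed with SMART-Seq v4 and made into unstranded Nextera XT libraries, sequenced as paired reads. Per the study's methods the authors trimmed reads with Trimmomatic 0.39, mapped them with STAR to GRCm38 and quantified genes with RSEM, and the deposited tables hold expected counts, TPM and FPKM for each gene. Expected counts are estimated: RSEM divides a read that fits several genes between them. Libraries held 9457933 to 27660132 counts.

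Expected counts were rounded, and a gene was kept if the number of libraries with 10 or more counts reached the size of the smaller group. Treatments were compared within each stage, with the libraries of that stage only, by edgeR 4.0.16's quasi-likelihood test with TMM scaling (R 4.3.3) and Benjamini-Hochberg adjustment over all genes tested. Stages were compared in the 9 DMSO libraries, and interactions in all 18. SEs were computed from the fold change and the F statistic. Tests were run on simulated data first. Lists of marker and homeobox genes, and the named genes (the 7 members, Gabpa, the 3 genes most like each member, and called members of each list), follow fixed rules. The members and lists were chosen with earlier results of these data known. Obox3-ps5, Obox3-ps2, Obox3-ps6 and Obox6-ps1 were named after their values or sequences were seen. Replicate libraries of each group differed by more than sampling noise, though not equally. At the median gene the squared deviation was 1.62 and 1.69 times that of sampling in the ICM groups. It was 2.86 to 16.1 times in the other groups. The SEs and adjusted p values of the ICM rest on this small spread. The alternatives were DESeq2 1.42.0, limma 3.58.1 on log2(TPM + 1) and log2(TPM + 0.1), 3 other scalings, no count filter, a stricter FPKM rule, all libraries in 1 fit, a replicate block and leaving out each library. MAFFT 7.526 aligned sequences. The other libraries of the series, which measure GABPA binding, accessibility and the histone mark H3K27ac, were not used here.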

Additional observations from a re-analysis of the deposited data

Results flagged for a closer look

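Each of these results was picked out because the dTAG13 effect on the gene differed between 2 stages by a test of that difference itself (edgeR interaction contrast, all 18 libraries). For Obox6 the morula effect exceeded the late two-cell effect by 2.70 on the log2 scale. For Obox8 the same difference was 4.55. For Obox6 the effect in the E4.5 ICM lay -3.34 from that in morulae. Morulae are in all of these contrasts, so they are not independent of each other, and the higher levels in dTAG13 morulae were known when the family was chosen, so the tests reuse those values and add no separate support.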

How the results depend on the processing

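The number of members called was 0 at the late two-cell stage, 2 in morulae, 0 in the E4.5 ICM and 0 in 2iES cells under every alternative run, leaving out each library included (0 to 0, 2 to 2, 0 to 0 and 0 to 0). Between control stages it was 7 (5 of them fixed by the count filter), 2 (that of Obox8 fixed in the same way) and 1 under every alternative and without any 1 library. The members whose effect differed between stages numbered 2 (2 to 3 without 1 library, 3 being reached without morula DMSO replicate 2, and 3 without the count filter), 1 (1 to 1) and 0 (0 to 1, Obox6 at 1.04 without 2iES DMSO replicate 2). TMM-scaled sums differed by 0.02 (-0.03 to 0.06 without 1 library), 2.53 (2.28 to 2.84), -0.82 (-0.94 to -0.70) and -0.44 (-0.88 to 0.20) on the log2 scale.

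The sums of late two-cell embryos and of 2iES cells changed sign within these ranges. Direction also turned in the following cases, and the cause was not tested in any. Obox2 at the late two-cell stage was 0.0314 with upper-quartile scaling, 0.0094 and 0.0095 with limma at pseudocounts of 1 and 0.1, and -0.1772 to 0.0487 without 1 library, above 0 without dTAG13 replicate 3. Obox6 in 2iES cells was -0.9287 to 0.1451 without 1 library, above 0 without DMSO replicate 2, and its difference from the ICM effect was -0.0547 to 1.04, below 0 without 2iES DMSO replicate 1. A group left with 1 library was taken to vary like the others in its fit. Upper-quartile scaling moved the median of all genes to 0.14, 0.11 and 0.21 on the log2 scale at the late two-cell, E4.5 ICM and 2iES stages, and library totals to 0.10 at the first. Ranking groups by FPKM kept the order of 6 of 7 members.

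Same-numbered late two-cell libraries correlated in their deviations at 0.0841, 0.117 and 0.169, and each library correlated best with its own number, a hint from the data only; in morulae and the ICM the values were 0.0249 and 0.0173, and in 2iES cells -0.197. The numbers were not taken to pair libraries, and a replicate block changed no count of members called (0, 2, 0 and 0). The crossed pairing of 2iES libraries, chosen after seeing the data, also gave 0.

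With 2 libraries a group in 3 of the 4 stages, and counts under 10 for most members past the late two-cell stage, small differences in those members are not detectable at this depth. How the division of reads between Obox1, Obox2, Obox5 and Obox7 bears on their single values was not tested.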
